A study of Rattus norvegicus with 9 samples.

Results

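The 10 chemokine ligand genes Ccl6, Ccl2, Ccl5, Ccl9, Cxcl1, Cxcl10, Cxcl12, Cxcl14, Cxcl16 and Cx3cl1 were taken by symbol from a table of RNA-seq read counts for 23953 genes, and all 10 were present. They were measured in neural stem cells (NSCs) from the spinal cords of neonatal rats, used at the second passage and kept in differentiation medium. The Con group (n = 3) had the medium alone. The Exo group (n = 3) also received exosomes of bone marrow mesenchymal stem cells (BMSC-Exos), which by the methods came from BMSCs carrying an empty lentiviral vector. The pLV-Exo-Wnt5a group (n = 3) received exosomes of BMSCs transduced with a lentiviral vector encoding rat Wnt5a, so the NSCs themselves were not transduced. The set was chosen by the counts of Ccl6, which stood out in pLV-Exo-Wnt5a against Exo. The values of the set in the pLV-Exo-Wnt5a libraries are thus given as a description, with no test. Calls of members in comparisons with those libraries are listed only beside the share over all genes. The libraries are not stated to come from separate cultures or animals, so any p-value reflects the spread between these libraries, which may be technical.

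Chemokines are small secreted proteins that direct cell movement through G protein-coupled receptors on the cells that respond. Some are made constitutively in the nervous system and guide migrating progenitors or mark the contact between neurons and microglia, the resident macrophages of the central nervous system. Others are made on demand by myeloid or glial cells under inflammatory cytokines or interferon, largely through NF-κB, C/EBP, AP-1 and STAT proteins.

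The libraries held between 32765138 and 40427647 counts, so that 3 counts, taken as the floor, were worth between 0.0742 and 0.0916 CPM, the count scaled to library size. Con replicate 1 stood apart from the other Con libraries, where the chi-square statistic of the counts divided by its degrees of freedom was 37.4 and 52.1, compared with 7.68 between Con replicates 2 and 3. The genes carried mouse symbols and mouse gene numbers although the cells were labelled as rat. Of 12 Hox genes in the table, which mark the spinal cord, 11 had at most 4 counts in any library and the other, Hoxb13, at most 22. These genes were looked at after their values were seen, and they did not show the spinal cord origin given by the labels.

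The promoters of Ccl6, Ccl9 and Cxcl10 are shown first, since among the members that passed the filter on low counts these 3 had the widest differences between pLV-Exo-Wnt5a and the other groups. They are the 250 bases before the gene start, 5′ to 3′ on the gene's strand, from RefSeq on rat assembly GRCr8, and the base before the start is position -1. RefSeq entries were matched for 8 of the 10 members, all but Ccl2 and Ccl5. Capitals mark matches to 4 motifs searched on both strands: the NF-κB (κB) consensus, the interferon-stimulated form (GAAA, any 2 bases, GAAA), the STAT form TTCNNNGAA and the AP-1 form TGANTCA.
Ccl6, chr10:68883367-68883616, minus strand: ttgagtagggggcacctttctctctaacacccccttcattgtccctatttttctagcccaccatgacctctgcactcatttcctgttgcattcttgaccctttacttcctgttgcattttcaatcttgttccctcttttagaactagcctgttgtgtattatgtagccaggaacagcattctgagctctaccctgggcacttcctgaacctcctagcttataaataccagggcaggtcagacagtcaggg
Ccl9, chr10:68868878-68869127, minus strand: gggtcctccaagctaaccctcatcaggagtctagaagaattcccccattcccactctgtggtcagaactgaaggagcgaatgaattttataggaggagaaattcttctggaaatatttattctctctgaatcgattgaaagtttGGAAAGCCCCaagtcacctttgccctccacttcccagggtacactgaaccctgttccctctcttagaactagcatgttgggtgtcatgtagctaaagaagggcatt
Cxcl10, chr14:15988816-15989065, plus strand: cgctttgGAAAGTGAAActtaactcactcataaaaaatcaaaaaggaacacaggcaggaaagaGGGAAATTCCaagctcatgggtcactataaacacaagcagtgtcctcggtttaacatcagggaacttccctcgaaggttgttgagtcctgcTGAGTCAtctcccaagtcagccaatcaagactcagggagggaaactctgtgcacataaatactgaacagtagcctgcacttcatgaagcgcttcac
None of the 4 letter patterns was found in the Ccl6 window, and no C/EBP form was searched in any window. Ccl9 held a κB match at -106 to -97. Cxcl10 held an interferon-stimulated match at -243 to -234, a κB match at -187 to -178 and a TGANTCA match at -96 to -90. With 50 bases after the start included, the κB consensus was found in 3 of the 8 members with a sequence (Ccl9, Cxcl1 and Cxcl10) and in 4.18% of 33469 rat promoters of the same 300 bases. The interferon-stimulated form was found in 1 member (Cxcl10) and 3.92% of promoters, TGANTCA in 2 members (Cxcl10 and Cxcl14) and 7.33%, and TTCNNNGAA in no member and 8.87%. Such matches are descriptions of the letters and were not tested for binding.

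Ccl6, Ccl9 and Ccl5 lie next to each other on rat chromosome 10, in the order Ccl5, Ccl9, Ccl6 and Ccl3 among protein-coding genes. Cxcl1 and Cxcl10 lie on chromosome 14. An lncRNA overlaps Ccl6, Art3 overlaps Cxcl10 and Zmynd15 overlaps Cxcl16. These overlaps are those of the rat annotation, whereas the counts carry mouse gene numbers, so the annotation used in counting may differ. Whether strand was used in counting is not given in the sources used here. Reads of overlapping genes may thus not be told apart, and reads shared by the related genes Ccl6 and Ccl9 may have been split between them.

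Ccl6 encodes a CC chemokine of rodent myeloid cells that acts through Ccr1. Its counts were 5, 4 and 0 in the Con libraries, 2, 1 and 2 in the Exo libraries, and 57, 58 and 56 in the pLV-Exo-Wnt5a libraries. All 3 pLV-Exo-Wnt5a libraries thus lay far above the other 6, and only Con replicates 1 and 2 among those 6 were above the floor. The level was 0.0775 ± 0.0684 CPM in Con, 0.0423 ± 0.0152 CPM in Exo and 1.46 ± 0.116 CPM in pLV-Exo-Wnt5a (SD, n = 3 each). Con and Exo, the neighbours at the low end, overlapped, and with 9 and 5 counts in all a difference between them was not detectable at this depth (ratio of Exo to Con 0.516, 95% exact interval 0.136 to 1.72).

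Against Con, the log2FC of Ccl6 in pLV-Exo-Wnt5a was 4.11 (SE 0.61), and the ratio of summed counts, 171 to 9, was 17.8. Against Exo the log2FC was 5.02 (SE 0.51) and the ratio of summed counts, 171 to 5, was 34.6. Without Con replicate 1 the log2FC against Con was 4.65, and leaving out each library in turn gave 3.60 to 4.65 against Con and 4.76 to 5.17 against Exo. No p-value or interval of these ratios is given, because the pLV-Exo-Wnt5a libraries in which Ccl6 was picked enter both comparisons and alone carry it over the filter on low counts. Both comparisons share the pLV-Exo-Wnt5a libraries.

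Ccl9, a close relative of Ccl6 that also acts through Ccr1, had 22, 14 and 21 counts in Con, 21, 20 and 33 in Exo, and 43, 98 and 45 in pLV-Exo-Wnt5a. The pLV-Exo-Wnt5a libraries were the highest 3, and replicate 2 lay well above replicates 1 and 3. The level was 0.523 ± 0.146 CPM in Con, 0.624 ± 0.183 CPM in Exo and 1.62 ± 0.919 CPM in pLV-Exo-Wnt5a (SD, n = 3 each). The log2FC was 0.25 (SE 0.43, Q = 0.781 by edgeR, the quasi-likelihood p adjusted by Benjamini-Hochberg over all genes tested) for Exo against Con and 1.62 (SE 0.46, unadjusted p = 0.00421, Q = 0.419 by edgeR) for pLV-Exo-Wnt5a against Con. Against Exo it was 1.38. Without pLV-Exo-Wnt5a replicate 2 the last 2 values were 1.06 and 0.81.

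Cxcl10, an interferon-induced ligand of Cxcr3, had 38, 37 and 18 counts in Con, 22, 37 and 23 in Exo, and 58, 55 and 95 in pLV-Exo-Wnt5a. Con and Exo overlapped, and every pLV-Exo-Wnt5a library lay above both. The level was 0.828 ± 0.243 CPM in Con, 0.688 ± 0.197 CPM in Exo and 1.76 ± 0.472 CPM in pLV-Exo-Wnt5a (SD, n = 3 each). The log2FC was -0.28 (SE 0.41, Q = 0.739 by edgeR) for Exo against Con and 1.07 (SE 0.36) for pLV-Exo-Wnt5a against Con. Without pLV-Exo-Wnt5a replicate 3 the latter log2FC was 0.83. Against Exo the log2FC was 1.36 (SE 0.35).

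**Figure D1:**
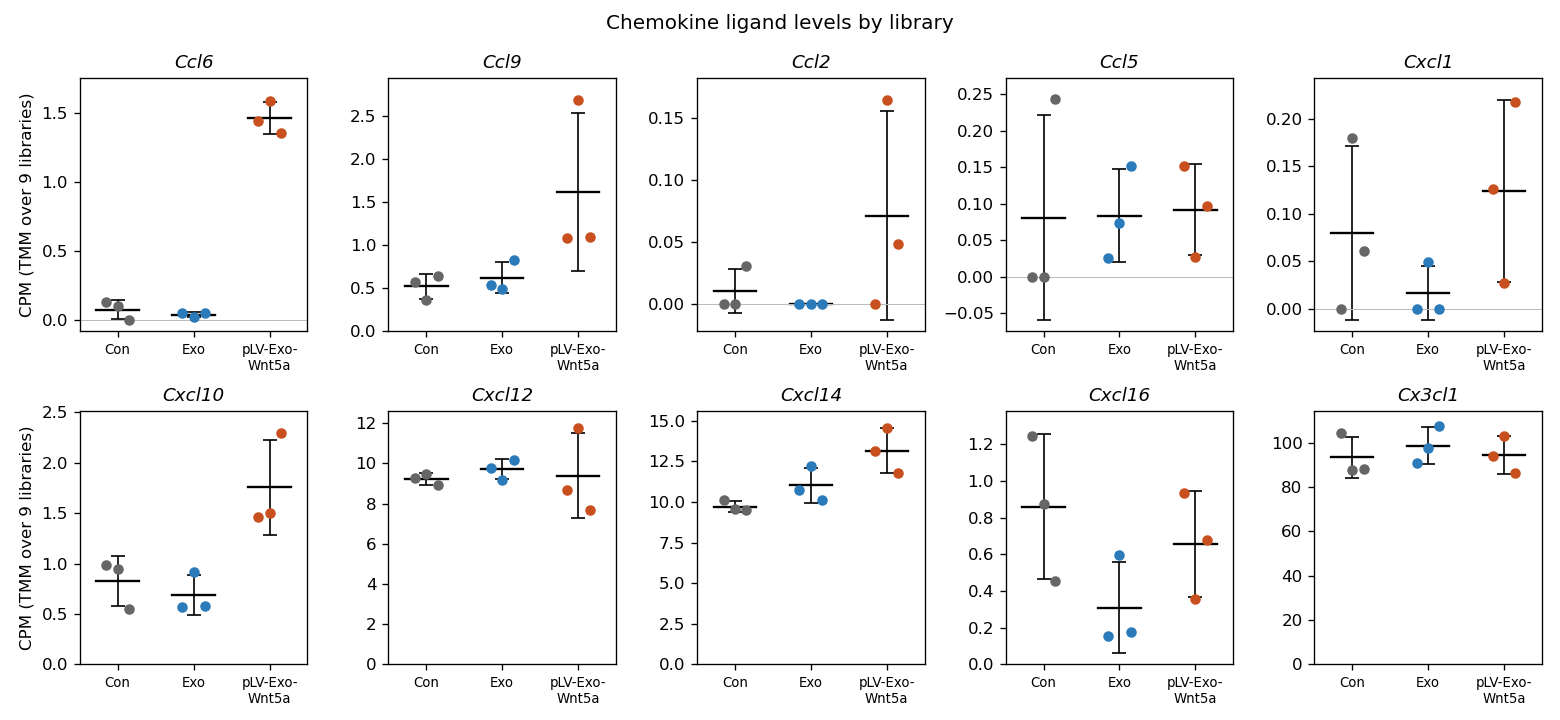
CPM of each of the 10 chemokine ligand genes (y axis of each panel, linear and scaled per gene) by group (x axis), with points for libraries and bars for mean ± SD (n = 3). The 3 pLV-Exo-Wnt5a libraries were between 1.36 and 1.59 CPM for Ccl6, above all others, while Cx3cl1 was between 86.1 and 107 CPM in all 9 libraries.

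Ccl2, which recruits monocytes through Ccr2, Ccl5, a T cell and monocyte attractant, and Cxcl1, which recruits neutrophils through Cxcr2, had fewer than 10 counts in every library and did not pass the filter on low counts. Ccl2 had 1 count in Con (replicate 3), 0 in the Exo libraries, and 0, 6 and 2 in pLV-Exo-Wnt5a. Ccl5 had 0, 0 and 8 counts in Con, 1, 3 and 6 in Exo, and 6, 1 and 4 in pLV-Exo-Wnt5a. Cxcl1 had 0, 7 and 2 counts in Con, 0, 2 and 0 in Exo, and 5, 1 and 9 in pLV-Exo-Wnt5a. The groups overlapped for each of the 3 genes, at or near the floor. No fold is given for them. Ccl6 in Con and Exo belonged to the same range of counts.

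The other members were detected in every library. Cx3cl1, or fractalkine, is a membrane-tethered ligand made by neurons and read by Cx3cr1 on microglia. It had 104, 87.6 and 88.1 CPM in Con, 90.7, 97.6 and 107 CPM in Exo, and 93.9, 103 and 86.1 CPM in pLV-Exo-Wnt5a. The groups overlapped, with a log2FC of 0.07 (SE 0.10, Q = 0.735 by edgeR) for Exo against Con and 0.01 (SE 0.11) for pLV-Exo-Wnt5a relative to Con. In pLV-Exo-Wnt5a against Exo the log2FC was -0.05.

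Cxcl12 guides neural progenitors through Cxcr4 and is taken up by Ackr3. It had 9.26, 9.47 and 8.92 CPM in Con, 9.77, 9.18 and 10.2 CPM in Exo, and 8.68, 11.8 and 7.70 CPM in pLV-Exo-Wnt5a. The pLV-Exo-Wnt5a libraries spread on both sides of the others. The log2FC was 0.07 (SE 0.13, Q = 0.815 by edgeR) for Exo against Con, 0.02 (SE 0.18) for pLV-Exo-Wnt5a against Con, and -0.04 against Exo. Cxcl14, a constitutive chemokine of epithelia and some neurons, had 10.1, 9.55 and 9.49 CPM in Con, 10.7, 12.2 and 10.1 CPM in Exo, and 13.1, 14.6 and 11.8 CPM in pLV-Exo-Wnt5a. Its Con libraries were the lowest 3, Con replicate 1 by a narrow margin, and Exo and pLV-Exo-Wnt5a overlapped. The log2FC was 0.17 (SE 0.14, Q = 0.534 by edgeR) for Exo against Con and 0.43 (SE 0.15) for pLV-Exo-Wnt5a against Con. It was 0.27 against Exo.

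Cxcl16 is, like Cx3cl1, a membrane-tethered ligand, and its receptor is Cxcr6. It had 48, 34 and 15 counts in Con, 6, 24 and 7 in Exo, and 37, 13 and 28 in pLV-Exo-Wnt5a. The level was 0.858 ± 0.395 CPM in Con, 0.309 ± 0.247 CPM in Exo and 0.656 ± 0.290 CPM in pLV-Exo-Wnt5a (SD, n = 3 each). Exo replicates 1 and 3 were the lowest libraries and Exo replicate 2 lay within the range of the others. The log2FC was -1.48 (SE 0.60, unadjusted p = 0.0336, Q = 0.304 by edgeR) for Exo against Con and -0.40 (SE 0.49) for pLV-Exo-Wnt5a against Con. Against Exo it was 1.09, and 1.98 without Exo replicate 2. In Exo against Con it was -2.37 without that library, and the unadjusted p rose above 0.05 in 4 of the 6 fits that left out 1 library (0.133 without Con replicate 1, 0.0680 without Con replicate 2, 0.114 without Exo replicate 1 and 0.115 without Exo replicate 3).

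**Figure D2:**
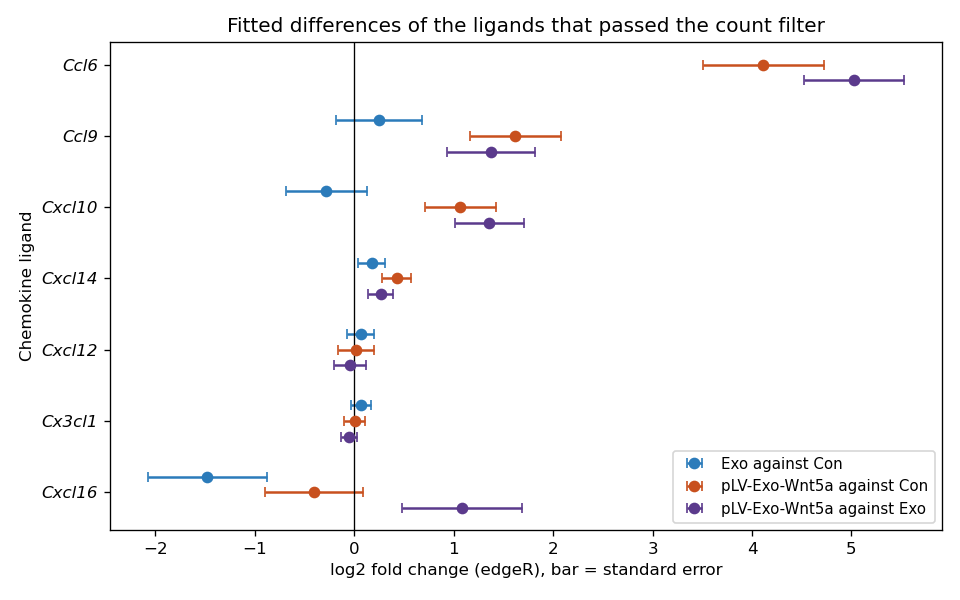
Log2FC of the tested members (points; bars are ± 1 SE) in the 3 comparisons, with 6 libraries each. Ccl6 lay at 4.11 against Con and 5.02 against Exo, and Cx3cl1 and Cxcl12 lay between -0.05 and 0.07 in each comparison.

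Of the 10 members, 6 passed the filter on low counts in Exo against Con and 7 in each pLV-Exo-Wnt5a comparison, Ccl6 only in the latter. With a call set at a Q below 0.05 together with a fold change over 2 or under 0.5, edgeR called 0 members in Exo against Con, beside 0.00664% of the 15070 genes tested, and 1 at an unadjusted p under 0.05 with an absolute log2FC above 0.58 (Cxcl16, lower), beside 4.47%. In pLV-Exo-Wnt5a against Con it called 1 (Ccl6), beside 0.0663% of 15089 genes, and 3 by the second rule (Ccl6, Ccl9 and Cxcl10), beside 2.16%. The Ccl6 call follows from the choice of that gene. Nothing is read from any of these calls, because the set was chosen with the same pLV-Exo-Wnt5a libraries. In pLV-Exo-Wnt5a against Exo the same counts were 1 and 3, beside 0.159% and 3.49% of 15132 genes, and nothing is read from them because that contrast was used in the choice. The libraries did not overlap and were higher for 1 member in Exo against Con (Cxcl14, beside 10.9% of genes), 4 in pLV-Exo-Wnt5a against Con (Ccl6, Ccl9, Cxcl10 and Cxcl14, beside 7.67%) and 3 in pLV-Exo-Wnt5a against Exo (Ccl6, Ccl9 and Cxcl10, beside 7.5%). For the same reason nothing is read from the counts in the pLV-Exo-Wnt5a comparisons. No member had all libraries lower in any comparison, beside 12.4%, 9.41% and 8.9% of genes. The median log2FC over all genes tested was 0.00 in each comparison.

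Among the receptors, Cx3cr1 had 40, 21 and 48 counts in Con, 3, 14 and 12 in Exo, and 11, 11 and 23 in pLV-Exo-Wnt5a. All Exo libraries were below all Con libraries, while pLV-Exo-Wnt5a overlapped both. The log2FC was -2.04 (SE 0.58, unadjusted p = 0.00545, Q = 0.265 by edgeR) for Exo against Con, -1.40 (SE 0.50, unadjusted p = 0.0158, Q = 0.524 by edgeR) for pLV-Exo-Wnt5a against Con and 0.65 (SE 0.61, Q = 0.743 by edgeR) against Exo. Neither Cxcr4, with group means of 21.3, 19.7 and 17.2 CPM in Con, Exo and pLV-Exo-Wnt5a, nor Ackr3, with 24.2, 23.9 and 24.2 CPM, was called in any comparison by either rule. The Cxcr4 libraries of pLV-Exo-Wnt5a, at 15.4 to 18.2 CPM, lay below all those of Con and Exo, of which the lowest was at 19.3 CPM, with a log2FC of -0.32 (SE 0.13, unadjusted p = 0.0277, Q = 0.562 by edgeR) against Con. Ccr1, the receptor for Ccl6 and Ccl9, had 10 counts in pLV-Exo-Wnt5a replicate 1, 1 in Con replicate 1 and 0 in the other libraries. Ccr2, Cxcr2, Cxcr3 and Cxcr6 were not analysed here. Adam10 and Adam17, proteases that shed Cx3cl1 and Cxcl16 from the membrane, were not called by either rule, with log2FC of 0.50 and -0.01 for Exo against Con, 0.13 and 0.02 for pLV-Exo-Wnt5a relative to Con, and -0.36 and 0.04 relative to Exo.

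**Figure D3:**
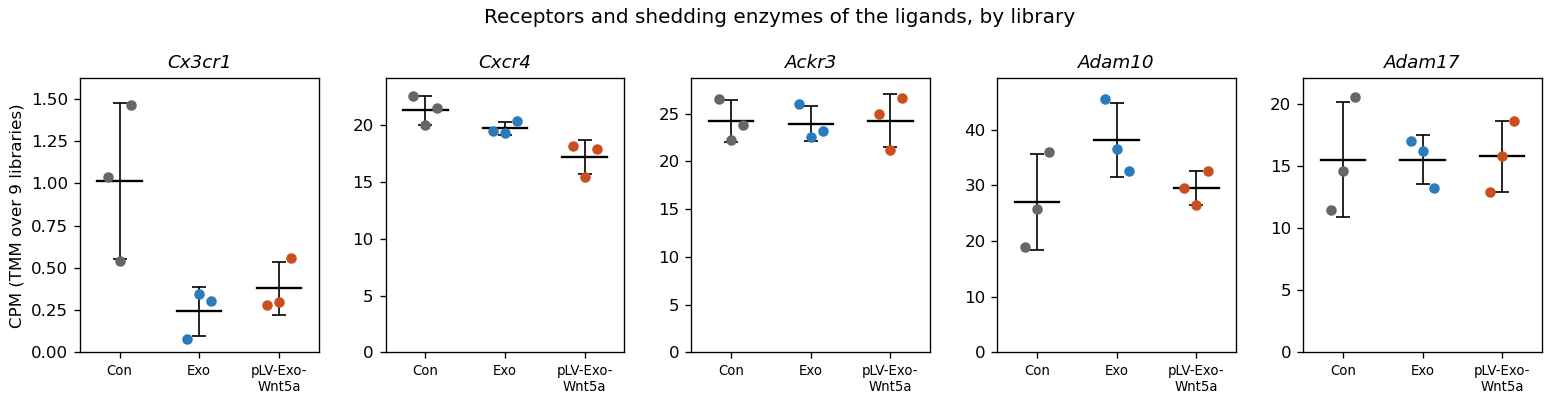
CPM by library (points) of receptors and shedding enzymes of the members in the 3 groups, with mean ± SD (n = 3). Cx3cr1 averaged 1.01 CPM in Con, 0.242 CPM in Exo and 0.378 CPM in pLV-Exo-Wnt5a, and the 3 lowest Cxcr4 libraries, at 15.4 to 18.2 CPM, were those of pLV-Exo-Wnt5a.

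Other ligands, receptors, signaling proteins, shedding and matrix-binding proteins, inducing cytokines and transcription regulators of chemokine genes made up a list of 127 genes, of which 100 were in the table and 72 were tested in each comparison. By Q and fold change, edgeR called 0 in Exo against Con, 0 in pLV-Exo-Wnt5a against Con and 1, higher, in pLV-Exo-Wnt5a against Exo. These counts stand beside 0.00664%, 0.0663% and 0.159% of all genes tested. By the unadjusted rule 2 were higher and 2 lower in Exo against Con (Gng2 and Gnai1, G protein subunits, and Cx3cr1 and the hematopoietic exchange factor Vav1). In pLV-Exo-Wnt5a against Con 4 were higher (Fos, Cebpd, Nfkbiz and Cebpb) and 1 was lower (Cx3cr1). In pLV-Exo-Wnt5a against Exo 6 were higher (Cebpd, Fos, Nfkbiz, Tnfrsf1b, Vav1 and Rac2) and 1 was lower (Il1rap). The unadjusted rule thus called 4, 5 and 7 of 72 genes, beside 4.47%, 2.16% and 3.49% of all genes tested, and the median log2FC of the list was -0.04, 0.08 and 0.07 in the 3 comparisons. The 4 other ligands tested, Ccl3, Ccl25, Ccl27a and Ccl28, were called in none of them.

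The called gene was Cebpd, a C/EBP transcription factor of the acute-phase response. It had 284, 233 and 207 counts in Con, 211, 262 and 194 in Exo, and 465, 389 and 649 in pLV-Exo-Wnt5a. Every pLV-Exo-Wnt5a library was above the other 6, with a log2FC of 1.19 (SE 0.18, Q = 0.0163 by edgeR) against Exo and 0.95 (SE 0.18, Q = 0.150 by edgeR) against Con. The call against Exo was lost without Exo replicate 2, pLV-Exo-Wnt5a replicate 1 or pLV-Exo-Wnt5a replicate 3. Fos, a subunit of AP-1, had a log2FC of 0.95 (SE 0.16, Q = 0.0659 by edgeR) against Con and 0.76 (SE 0.15, Q = 0.0563 by edgeR) against Exo. Nfkbiz, a nuclear IκB protein that acts on NF-κB target genes, had 0.63 (SE 0.19, Q = 0.434 by edgeR) and 0.66 (SE 0.19, Q = 0.174 by edgeR). Of the 19 transcription regulators, 18 had a log2FC above 0 in pLV-Exo-Wnt5a against Exo, with a median of 0.37, and 14 in pLV-Exo-Wnt5a against Con, with a median of 0.21. In Exo against Con 4 were above 0 and 15 below, with a median of -0.18. Each pair of these comparisons shares a group of libraries.

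Markers of microglia and macrophages, cells that make Ccl6 and Ccl9 and express Cx3cr1, were counted in the same way. Over the 20 markers, the summed level was 42.7 to 44.7 CPM in Con, 26.0 to 27.4 CPM in Exo and 44.4 to 57.0 CPM in pLV-Exo-Wnt5a. In Exo against Con 15 markers were tested, of which 0 were called by Q, beside 0.00664% of all genes tested. By the unadjusted rule 6 were lower, beside 4.47% of all genes tested in either direction. Among them was C1qa, a complement subunit, with a log2FC of -1.43 (SE 0.23, Q = 0.137 by edgeR). In pLV-Exo-Wnt5a against Exo 16 were tested. Of these Lyz2, the lysozyme of myeloid cells, alone was called by Q (log2FC 1.21, SE 0.16, Q = 0.0113 by edgeR), beside 0.159% of all genes tested. By the unadjusted rule 10 were higher, beside 3.49% of all genes tested, and the median log2FC was 0.84. In pLV-Exo-Wnt5a against Con 0 were called by Q, beside 0.0663% of all genes tested. By the unadjusted rule 2 were higher (Lyz2 and the Fc receptor Fcgr3), beside 2.16% of all genes tested, with a median of 0.09. The marker sums of Con and pLV-Exo-Wnt5a overlapped narrowly, with 1 pLV-Exo-Wnt5a library below the highest Con library. Ccl6 was 0 to 0.130 CPM in Con and 1.36 to 1.59 CPM in pLV-Exo-Wnt5a. Mrc1 was at 0 in Con and Exo, though not in every pLV-Exo-Wnt5a library. The homeostatic microglial marker P2ry12 averaged 0.113, 0.0773 and 0.0915 CPM in Con, Exo and pLV-Exo-Wnt5a. Tmem119, another such marker, had 17, 2 and 26 counts in all, or 0.150, 0.0170 and 0.219 CPM. The part of these cells in the levels of Ccl6, Ccl9, Cxcl16 and Cx3cr1 was not tested, and in bulk libraries fewer cells of a type and less RNA per cell cannot be told apart.

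**Figure D4:**
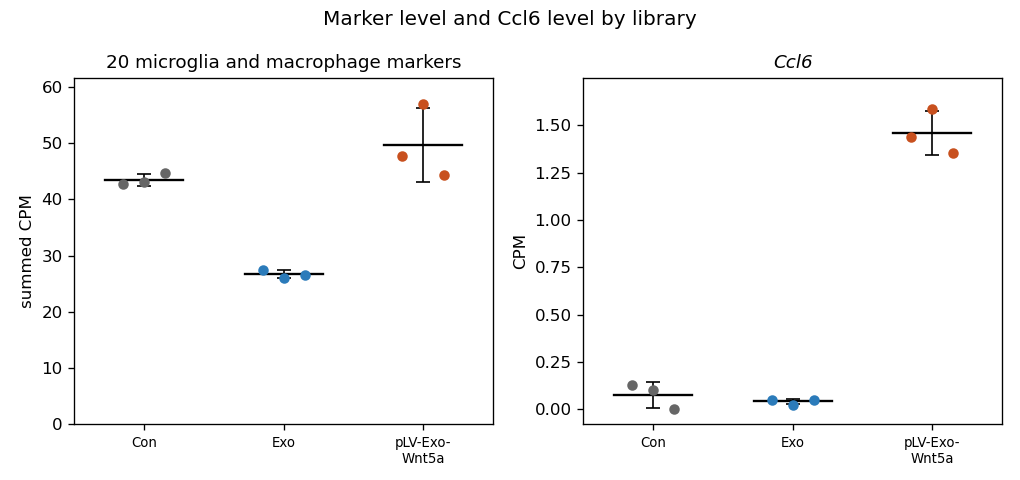
Summed CPM of 20 microglia and macrophage markers and CPM of Ccl6 in each of the 9 libraries. The marker sums were 42.7 to 44.7 in Con, 26.0 to 27.4 in Exo and 44.4 to 57.0 in pLV-Exo-Wnt5a, and Ccl6 was above 0.130 CPM only in pLV-Exo-Wnt5a.

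The genes whose pattern was closest to that of Ccl6 were ranked over 15451 genes by the root mean square difference of log2 CPM (prior count of 2), each gene centred on its mean over the 9 libraries. Lcn2, an iron-siderophore binding protein, was first at 0.615, with counts of 3, 1 and 0 in Con, 5, 0 and 0 in Exo, and 21, 54 and 32 in pLV-Exo-Wnt5a. Like Ccl6 it was near the floor in Con and Exo. Serpina3n, a secreted serine protease inhibitor, was second at 0.760, with group means of 46.8, 35.9 and 241 CPM in Con, Exo and pLV-Exo-Wnt5a. Serpina3i, a related gene whose reads may be shared with Serpina3n, followed at 0.931, with 0.0766, 0.0599 and 1.18 CPM. Tnn, which encodes the matrix protein tenascin-N, was at 0.978, with 4.46, 2.44 and 13.6 CPM, and the imprinted lncRNA H19 was at 1.01, with 21.7, 18.0 and 75.3 CPM. All 5 had their highest 3 libraries in pLV-Exo-Wnt5a, as the ranking favors.

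**Figure D5:**
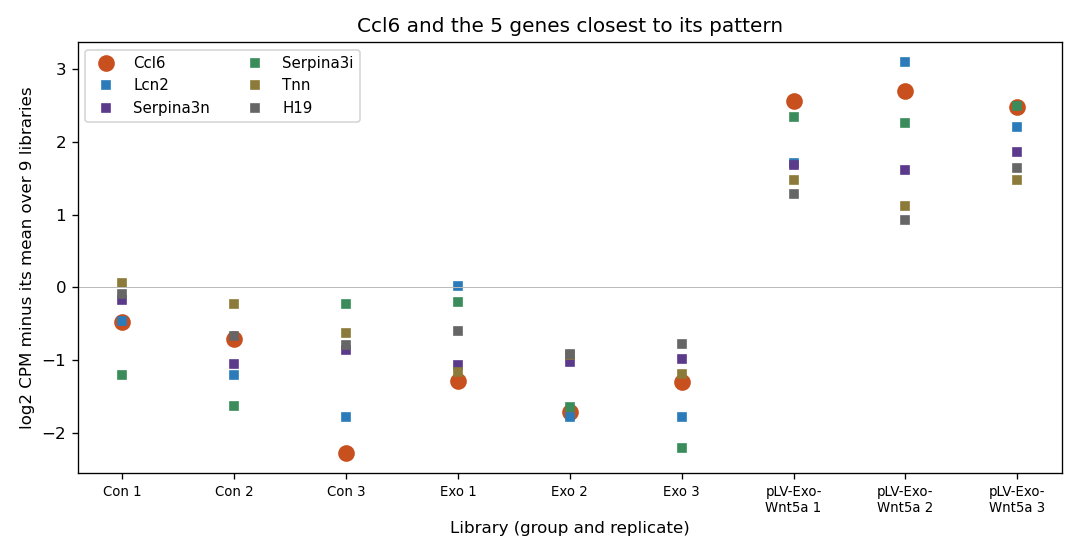
Log2 CPM of Ccl6 (circles) and of the 5 genes closest to its pattern (squares), each minus its own mean over the 9 libraries, by library. Ccl6 was between 2.48 and 2.70 in the pLV-Exo-Wnt5a libraries and between -2.28 and -0.47 in the others.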

How the data were processed

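RNA-seq was performed on 9 libraries of NSCs (n = 3 per group), all under a single batch label. The table the authors deposited holds unnormalized counts, which are whole numbers for each gene. The labels list Bowtie2, RSEM 1.3.1 and DESeq2 1.4.5, whereas the methods name HISAT2. Genome build, annotation and counting options are not given in the sources used here. The deposited table also holds no column without a sample (0 such columns).

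Counts were filtered with filterByExpr, normalized by TMM and tested pairwise (6 libraries per fit) by quasi-likelihood in edgeR 4.0.16 (R 4.3.3). CPM values used TMM over all 9 libraries. A second rule, taken from the study's results, used unadjusted p-values under 0.05 and an absolute log2FC above 0.58. DESeq2 1.42.0, other filters, the replicate block and leaving out each library were alternatives. The fits were tested on simulated data. Intervals of count ratios are exact (conditional binomial) and, like floors, cover counting error only.

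The members and lists were chosen with earlier results of these data known. All 10 members were described in every comparison. Of the pathway lists, genes called by either rule (up to 4 with the smallest p per list), the receptors and shedding enzymes of members, and the other ligands tested were named, together with the 5 genes closest to Ccl6. Marker lists were described by counts and summed CPM, with a few markers as examples, chosen after their values were seen.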

Additional observations from a re-analysis of the deposited data

How the results depend on the processing

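By the unadjusted rule, members called numbered 1, 3 and 3 and pathway genes called numbered 4, 5 and 7 in Exo against Con, pLV-Exo-Wnt5a against Con and pLV-Exo-Wnt5a against Exo. In pLV-Exo-Wnt5a against Exo, DESeq2 and the fit with no filter each called 2 members (Ccl6 and Cxcl10), beside 74 of 15132 and 69 of 23185 genes, and nothing is read from this because that contrast was used in the choice. With at least 10 counts in every library, which removes Ccl6, 0 members were called in either pLV-Exo-Wnt5a comparison. Without the filter, 1 pathway gene (Cx3cr1) was called in Exo against Con, beside 50 of 23057 genes. Leaving out 1 library at a time gave 0 to 1 members (Ccl6) in pLV-Exo-Wnt5a against Con. It gave 0 without Con replicate 1, Con replicate 2 or any pLV-Exo-Wnt5a library, where 8, 1, 3, 2 and 1 of all genes were called, compared with 10. Over these fits the log2FC of Ccl6 was 3.60 to 4.65, and nothing is read from its calls, because the set was chosen by that gene. Pathway genes called numbered 0 to 1 in each comparison. There was 1 without Con replicate 3 in Exo against Con, beside 138 of 15449 genes, and 1 (Fos) without Con replicate 1 in pLV-Exo-Wnt5a against Con. In pLV-Exo-Wnt5a against Exo there were 0 without Exo replicate 2, pLV-Exo-Wnt5a replicate 1 or pLV-Exo-Wnt5a replicate 3, where 11, 14 and 13 of all genes were called, compared with 24. The fits that left out a library held fewer samples. Signs turned only for log2FC near 0. Leaving out 1 library gave -0.0074 (without Exo replicate 3) to 0.41 for Ccl9 in Exo against Con. In pLV-Exo-Wnt5a against Con it gave -0.17 to 0.14 for Cxcl12, below 0 when the third Con or the second pLV-Exo-Wnt5a library was left out, and -0.052 to 0.10 for Cx3cl1, below 0 without Con replicate 2, Con replicate 3 or pLV-Exo-Wnt5a replicate 2. For pLV-Exo-Wnt5a against Exo it gave -0.23 to 0.077 for Cxcl12 and -0.12 to 0.015 for Cx3cl1. The replicate numbers did not pair the libraries (correlation of same-numbered deviations from -0.201 to 0.0634). With the replicate block, Cxcl12 in pLV-Exo-Wnt5a against Con was -0.0027, and the counts of called members were unchanged. Depth limits Ccl2, Ccl5, Cxcl1 and, in Con and Exo, Ccl6, where single counts decide the value.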

Other observations

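Markers of other neural and stromal cell types were counted in the same fits. By Q and fold change edgeR called 0 of 8 astrocyte, 0 of 8 neuron, 0 of 8 neural stem cell, 0 of 6 tested oligodendrocyte lineage and 0 of 9 tested mesenchymal and vascular markers in each comparison. The shares over all genes were 0.00664% in Exo against Con, 0.0663% in pLV-Exo-Wnt5a against Con and 0.159% in pLV-Exo-Wnt5a against Exo. By the unadjusted rule in pLV-Exo-Wnt5a against Exo, 1 astrocyte, 1 neural stem cell and 1 mesenchymal or vascular marker were higher and 1 neuron marker was lower, beside 3.49% of all genes tested. In pLV-Exo-Wnt5a against Con 1 astrocyte marker was higher, and of the mesenchymal and vascular markers 1 was higher and 1 lower, beside 2.16% of all genes tested. In Exo against Con 1 neuron marker was higher and 1 mesenchymal or vascular marker was lower, beside 4.47% of all genes tested. The summed astrocyte markers were 4987 to 6024 CPM in Con, 4877 to 5005 CPM in Exo and 6576 to 6908 CPM in pLV-Exo-Wnt5a, where the 3 pLV-Exo-Wnt5a libraries were the highest. Gfap, the astrocyte intermediate filament protein, made up much of that sum, with means of 2539, 2234 and 4026 CPM in the 3 groups. Of the 8 markers, 5 had a log2FC below 0 in pLV-Exo-Wnt5a against Con and 5 against Exo, with medians of -0.06 and -0.16. The part of these cells in the chemokine values was not tested.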
